A study of Homo sapiens with 6 samples.

Results

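A set of 10 genes of the glutathione S-transferase family was followed: GSTA1, GSTA2 and GSTA4 of the alpha class, GSTM3 and GSTM4 of the mu class, GSTP1 (pi), GSTO1 (omega), GSTK1 (kappa), GSTZ1 (zeta) and the membrane-bound MGST1. They are 10 of 60675 genes with a count, and 10 of the 23 human genes listed here for the family, of which 21 had an identifier in the count data. The list was picked because GSTA1 and GSTA2 had risen in these same libraries, so the change of that pair is given below as a description without a test. A rise is not given as the reason for listing the other 8 genes, but the list was made with earlier results of these data known. The question put to them was whether the rise is limited to the alpha class.

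Glutathione S-transferases join the thiol of glutathione to electrophilic compounds, which makes drugs, carcinogens and products of lipid peroxidation more soluble and ready for export. The cytosolic enzymes fall into classes by sequence, and the alpha class is abundant in normal hepatocytes, where GSTA1 and GSTA2 are classical products of the differentiated cell. GSTP1 is typical of other epithelia and is often high in tumours and cultured cell lines.

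RNA-seq was performed on PLC/PRF/5, an established human cell line grown from a liver cancer (hepatocellular carcinoma). There were 3 libraries of control cells and 3 of cells with knockdown of MTR4 (MTR4 KD), the RNA helicase that delivers RNA to the nuclear exosome. The labels name the groups only as control and MTR4 KD. The study describes its RNA-seq cells as isogenic, before and after a doxycycline-inducible shRNA (iMTR4) was switched on, so an effect of doxycycline and an effect of the knockdown cannot be told apart here, and no library of doxycycline-treated scramble cells was analysed here. Whether the cells were a clone or a pool, and whether the 3 libraries of a group came from separate cultures, is not given in the sources used here, so p-values measure only the spread between these libraries, which may be technical.

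Each library had from 60686786 to 72708682 reads assigned to genes. MTR4 itself (MTREX) was at 72.2, 87.4 and 74.4 CPM (counts scaled to library size with TMM factors) in control libraries 1, 2 and 3 and at 44.6, 48.8 and 44.1 CPM in MTR4 KD libraries 1, 2 and 3, a log2 fold change of -0.77 (SE 0.0897, adjusted p = 0.00641 by edgeR). The libraries also differed in the share of reads that aligned to more than 1 place. This share lay between 34.7% and 37.5% in control 1, control 3 and MTR4 KD 3 and between 14.8% and 18.2% in control 2, MTR4 KD 1 and MTR4 KD 2, and these sets are called batches, named for having more or fewer non-unique reads. Both conditions were in each batch, and values within batches or from a fit that also had the batch as a term are given for the 10 genes and for the counts of each list. Summed hepatocyte markers stood at 24210 to 25670 CPM in control and 24290 to 26130 CPM in MTR4 KD. Of these markers 3 of 10 passed the test, ALB, APOA1 and TTR, all higher after MTR4 KD. The list did not move as a whole: 6 of the 10 had a positive and 4 a negative log2 fold change, with a median of 0.08. Summed markers of fibroblasts reached at most 14.6 CPM, of endothelial cells 0.571 CPM and of leukocytes 34.0 CPM in any library, with 0 called in these lists. KDR and CD68 were at or near 0 reads, but other markers of these lists were not. The leukocyte marker LYZ was at 24.4 to 31.6 CPM. PTPRC had 6, 0 and 109 reads in control and 8, 5 and 33 after MTR4 KD. COL1A2 of the fibroblast list had 28, 338 and 30 reads in control and 2, 3 and 63 after MTR4 KD. By the same fit 1 of 4 cholangiocyte markers passed, KRT19, at a log2 fold change of -2.67 (adjusted p = 0.0318). In the fit with the batch, 4 of 10 tested hepatocyte markers were called higher. In that fit 2 of 4 tested cholangiocyte, 1 of 4 fibroblast and 2 of 2 leukocyte markers were called lower. Of all tested genes, 1.48% were called higher and 2.12% lower without the batch, and 9.43% and 10.8% with it. The part of these markers in the results below was not tested, and in bulk RNA fewer cells of a kind and less RNA per cell cannot be told apart.

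GSTA1 and GSTA2 lie next to each other on the minus strand of chromosome 6, with GSTA4 in the same cluster. On GRCh38 the RefSeq gene of GSTA1 spans chr6:52791371-52803816, that of GSTA2 chr6:52750087-52763475 and that of GSTA4 chr6:52977953-52995284. The bases just upstream of each start are shown because they separate the pair that was picked from GSTA4. They are the 200 bases before the start, 5′ to 3′ on the minus strand, from RefSeq on GRCh38.p14, at chr6:52803817-52804016 for GSTA1, chr6:52763476-52763675 for GSTA2 and chr6:52995285-52995484 for GSTA4. Capitals mark the bases that differ between GSTA1 and GSTA2 in the upper pair, and CG pairs in GSTA4.
GSTA1: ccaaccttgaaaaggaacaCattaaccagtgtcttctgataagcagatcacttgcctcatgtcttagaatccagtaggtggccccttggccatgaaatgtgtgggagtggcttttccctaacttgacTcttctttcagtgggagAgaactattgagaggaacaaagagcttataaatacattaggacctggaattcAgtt
GSTA2: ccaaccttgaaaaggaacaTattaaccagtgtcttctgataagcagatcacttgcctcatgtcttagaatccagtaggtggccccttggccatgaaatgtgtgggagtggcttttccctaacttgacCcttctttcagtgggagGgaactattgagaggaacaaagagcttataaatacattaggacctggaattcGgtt
GSTA4: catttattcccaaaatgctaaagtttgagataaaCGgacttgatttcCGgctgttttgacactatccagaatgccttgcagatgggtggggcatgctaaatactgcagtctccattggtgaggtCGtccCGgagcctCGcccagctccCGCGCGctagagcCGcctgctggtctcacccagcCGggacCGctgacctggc

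The GSTA1 and GSTA2 stretches were identical at 196 of these 200 bases, and at 243 of 250 (97.2%) when 50 more bases were taken. Each of the pair held TATAAA 30 to 25 bases before the start. Each also held the C/EBP core TTGCNNAA at 250 to 243 bases, just outside the printed stretch. GSTA4 held neither of these within 250 bases and ended instead in tgacctggc, a match to the antioxidant response element core TGACNNNGC at 9 to 1 bases before the start. Over 34943 promoters of the same length searched on both strands, 9.06% held TTGCNNAA, 10.9% held TGACNNNGC and 10.8% held TATAAA. The pair also differed from GSTA4 in base composition, with 1 CpG in 250 bases and a GC content of 40.8% and 40.4%, against 11 CpG and 50.4% in GSTA4. The median promoter had 11 CpG and 58.0% GC. These features were not limited to the alpha class. GSTM3, with a log2 fold change of -0.05, also had 1 CpG in 250 bases and a GC content close to that of the pair. On either strand, TATAAA also occurred in GSTO1 and in a promoter of MGST1, and TTGCNNAA in GSTK1. TGACNNNGC also occurred in GSTO1 and GSTP1. The features thus separate the pair from GSTA4 but not from all listed genes outside the alpha class. A match describes letters only and does not show that a factor binds there.

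GSTA1, whose enzyme also isomerizes steroids and conjugates alkylating drugs such as busulfan, had 561, 844 and 614 reads in the control libraries and 2457, 3258 and 2623 after MTR4 KD. As scaled levels these were 9.10, 11.7 and 10.2 CPM against 40.1, 48.8 and 42.8 CPM. Every MTR4 KD library lay above every control library, and the groups were far apart. The mean went from 10.3 ± 1.29 CPM to 43.9 ± 4.47 CPM (SD, n = 3 each), a log2 fold change of 2.09 or 4.25-fold. The log2 difference was 2.15 among the libraries with more and 1.93 among those with fewer non-unique reads. The fold change ranked 15 from the top of 18075 tested genes. GSTA1 was picked for this rise, so its gap and rank only describe it and give it no support.

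GSTA2, a near copy of GSTA1 with similar peroxidase and conjugating activity, had 350, 429 and 312 reads in control and 1014, 1316 and 1115 after MTR4 KD. Its levels were 5.68, 5.93 and 5.17 CPM against 16.5, 19.7 and 18.2 CPM, again with no overlap. The mean went from 5.59 ± 0.383 to 18.1 ± 1.59 CPM (SD, n = 3 each), a log2 fold change of 1.70 or 3.24-fold, at rank 38. GSTA2 was picked in the same way, so the same limit holds. Within the batches the log2 differences were 1.75 and 1.61.

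The level of GSTA1 over that of GSTA2, both as CPM per kb of transcript, was 1.61, 1.97 and 1.97 in the control libraries and 2.43, 2.48 and 2.36 after MTR4 KD. The lowest ratio after MTR4 KD was thus above the highest in control, and GSTA1 was the more abundant of the pair in all 6 libraries. The transcripts share sequence: 26.0% of the 50-base words of the GSTA1 transcript and 22.0% of those of GSTA2 occur in another gene, and 9.83% and 9.80% of their 100-base words occur in each other. Reads from such stretches may have been left out as non-unique, both from each gene and from the sum of the pair. What this does to the ratio was not tested. With the reads of both added into 1 gene, the log2 fold change was 1.96.

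GSTA4 prefers 4-hydroxynonenal and related aldehydes from lipid peroxidation, and 0% of its 50-base or 100-base words occur in another gene. It was at 63.4, 80.7 and 64.0 CPM in control and at 100.2, 103.1 and 97.1 CPM after MTR4 KD. The groups did not overlap, although control 2 stood well above the other control libraries. The mean rose from 69.4 ± 9.82 to 100.2 ± 2.99 CPM (SD, n = 3 each), a log2 fold change of 0.53 (SE 0.102, 95% interval 0.29 to 0.77) or 1.44-fold, with an adjusted p of 0.0383 by edgeR. GSTA4 ranked 1074. The call depended on the libraries. Within the more non-unique batch the log2 difference was 0.61, and within the other it was 0.33. Without MTR4 KD 1, 2 or 3 the adjusted p was 0.157, 0.170 or 0.0537, without control 1 or 3 it was 0.162 or 0.157, and only without control 2 was it below the threshold, at 0.00409. The log2 fold change itself lay between 0.47 and 0.65 in these 6 fits. With the batch as a term the log2 fold change was 0.47 (adjusted p = 6.74e-05).

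**Figure D1:**
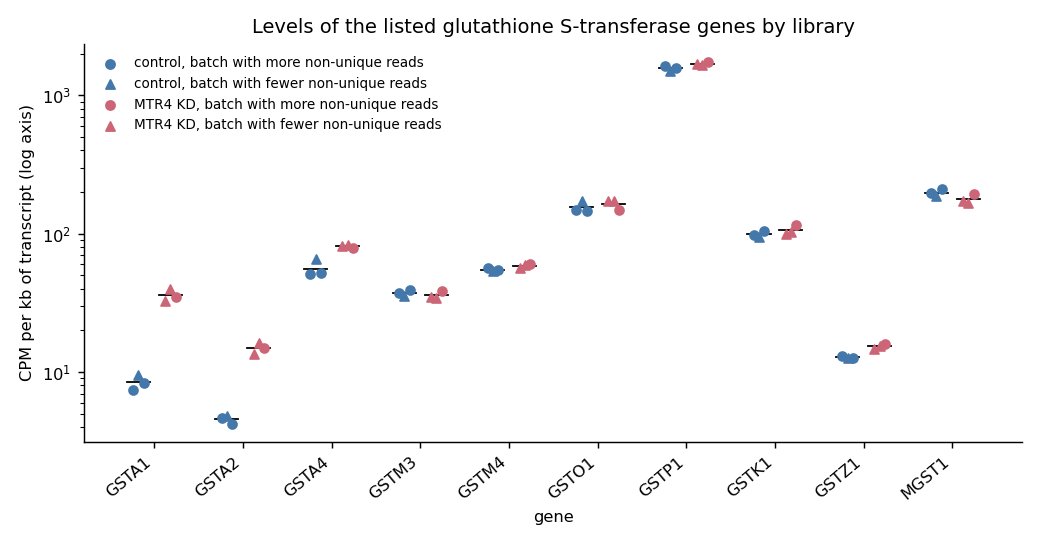
Level of each of the 10 genes in each library as CPM per kb of the canonical transcript on a log axis, with blue points for control, red for MTR4 KD, shapes for the library batch and black bars for group means (n = 3 each). GSTA1 and GSTA2 stand clear of their controls, GSTA4 does so by less, and the other 7 genes sit at nearly the same height in both groups.

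Not every alpha class gene was higher after MTR4 KD. GSTA3, the steroid-isomerizing member expressed mainly in steroid-forming tissue, had 97 to 134 reads in control and 83 to 87 after MTR4 KD, with a log2 fold change of -0.37 (SE 0.220, 95% interval -0.89 to 0.15, adjusted p = 0.425, edgeR). Its levels were 1.67, 1.34 and 2.22 CPM against 1.35, 1.27 and 1.42 CPM, which overlapped. GSTA5, which lies between GSTA1 and GSTA3 in the cluster, had 0 reads in all 6 libraries.

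Outside the alpha class, 0 of the 7 listed genes passed an adjusted p of 0.05, and their log2 fold changes lay between -0.15 and 0.26. Only 1.48% of all tested genes passed as higher and 2.12% as lower, so a count of 0 among so few genes is near that share. GSTP1, the dominant family member here, was at 1200, 1104 and 1169 CPM in control and 1242, 1228 and 1287 CPM after MTR4 KD. The MTR4 KD libraries were all above control, by a log2 fold change of 0.11 (SE 0.0598, 95% interval -0.03 to 0.25, adjusted p = 0.362). GSTZ1, which also isomerizes maleylacetoacetate in tyrosine breakdown, was at 15.6, 15.1 and 14.9 CPM in control and 17.4, 18.3 and 18.9 CPM after MTR4 KD. These groups did not overlap either, and the log2 fold change was 0.26 (SE 0.0726, 95% interval 0.09 to 0.43, adjusted p = 0.112).

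The mu class enzymes act on epoxides and other electrophiles. GSTM3 was at 154.1, 145.3 and 160.4 CPM in control and 143.5, 142.4 and 159.2 CPM after MTR4 KD, overlapping, with a log2 fold change of -0.05 (SE 0.0714, 95% interval -0.21 to 0.12, adjusted p = 0.782). GSTM4 was at 79.1, 74.7 and 76.0 CPM against 79.2, 82.4 and 83.7 CPM. Its MTR4 KD libraries were above control by a narrow margin, with a log2 fold change of 0.09 (SE 0.0574, 95% interval -0.04 to 0.23, adjusted p = 0.436), and 18.9% of its 50-base words occur in other genes, mostly of the mu class.

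GSTO1, an omega class enzyme with thioltransferase and dehydroascorbate reductase activity, was at 120.8, 139.0 and 118.1 CPM in control and 139.0, 138.9 and 120.3 CPM after MTR4 KD. It followed the batches: the 3 libraries with fewer non-unique reads were the 3 higher ones whatever their condition. In the fit with the batch its log2 fold change was 0.01. Without it the log2 fold change was 0.08 (SE 0.0910, 95% interval -0.14 to 0.29, adjusted p = 0.712). GSTK1, the enzyme of mitochondria and peroxisomes, was at 101.2, 96.9 and 107.7 CPM against 102.3, 105.9 and 119.3 CPM. The groups overlapped, and the log2 fold change was 0.10 (SE 0.0794, 95% interval -0.09 to 0.28, adjusted p = 0.564). MGST1, a glutathione transferase and peroxidase of the endoplasmic reticulum and outer mitochondrial membrane, was at 183.2, 172.9 and 192.8 CPM in control and 158.8, 154.2 and 180.3 CPM after MTR4 KD. MTR4 KD 3 lay within the control range, and the log2 fold change was -0.15 (SE 0.0801, 95% interval -0.34 to 0.03, adjusted p = 0.354).

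Of the 8 listed genes beside the pair, 1 was thus called higher, GSTA4, and 0 lower. Among all 18075 tested genes 1.48% were called higher and 2.12% lower. With GSTA1 and GSTA2, 3 of 10 lay past the same threshold, and from that count nothing is read because it includes the pair that was picked. The median log2 fold change was 0.10 over the 8 genes, 0.09 over the 7 outside the alpha class and 0.01 over all tested genes. Among the 8 genes, 4 had every MTR4 KD library above every control library, GSTA4, GSTM4, GSTP1 and GSTZ1, and 0 had every MTR4 KD library below, where 12.1% and 12.6% of all tested genes had these patterns. A rise of more than 2-fold at an adjusted p under 0.05 was reached by 0 of the 8, and by 0.321% of all tested genes.

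The answer on class changed with the fit. When the batch was added as a term, 4 of the 8 genes passed as higher and 0 as lower, where 9.43% of all tested genes passed as higher and 10.8% as lower. Beside GSTA4, they were GSTZ1 at a log2 fold change of 0.28 (adjusted p = 0.00883), GSTK1 at 0.15 (adjusted p = 0.0321) and GSTP1 at 0.14 (adjusted p = 0.0296). In the fit without the batch they stood at 0.26, 0.10 and 0.11. All were far below that of GSTA1, 2.04, or GSTA2, 1.68, in the same fit. The within-batch differences were 0.12 and 0.16 for GSTP1, 0.19 and 0.10 for GSTK1 and 0.31 and 0.25 for GSTZ1, each on the log2 scale with the batch of more non-unique reads first.

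**Figure D2:**
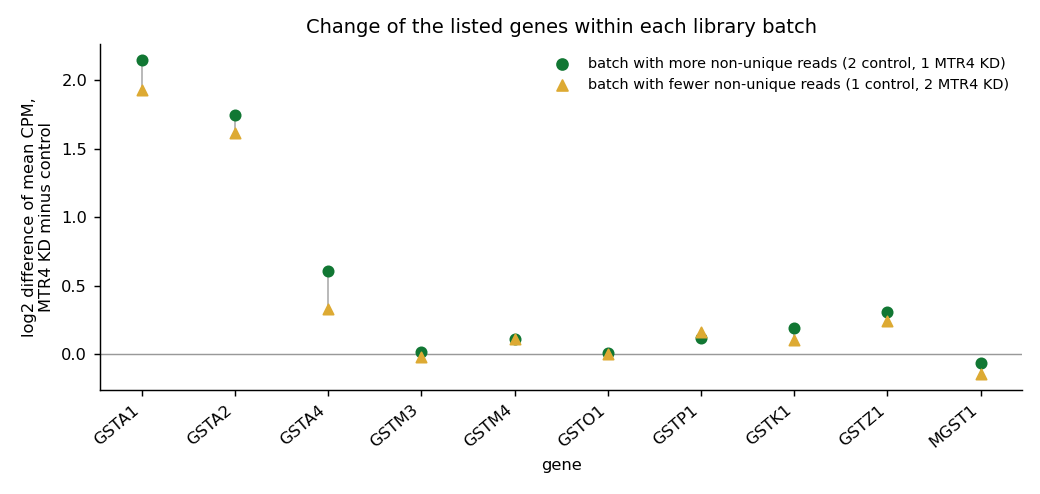
Log2 difference of mean CPM, MTR4 KD minus control, of the 10 genes within the more non-unique batch (circles, 2 control and 1 MTR4 KD) and within the other batch (triangles, 1 control and 2 MTR4 KD). GSTA1 and GSTA2 are high in both batches, GSTA4 is at 0.61 and 0.33, GSTZ1 at 0.31 and 0.25, and the other 6 lie between -0.14 and 0.19.

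Among the 11 other family genes with an identifier, 5 had enough reads to be tested. Of these 5, 0 passed in either direction, beside 1.48% of all tested genes called higher and 2.12% lower. GSTM2 of the mu class was at 26.3, 27.2 and 28.5 CPM in control and 31.3, 31.7 and 37.0 CPM after MTR4 KD, without overlap, and its log2 fold change was 0.29 (SE 0.0861, adjusted p = 0.134). For GSTM2, 46.1% of the 50-base words occur in other genes. MGST2, which can also form leukotriene C4, was at 48.3, 43.1 and 47.3 CPM against 37.0, 37.6 and 40.8 CPM. It was lower without overlap, with a log2 fold change of -0.27 (SE 0.0722, adjusted p = 0.107). With the batch as a term GSTM2 passed as higher (0.32, adjusted p = 0.00315) and MGST2 as lower (-0.22, adjusted p = 0.00628). GSTO2 and MGST3 overlapped between groups, with log2 fold changes of 0.05 and -0.09 (adjusted p = 0.913 and 0.667).

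The remaining 6 were at or near 0 reads. GSTT2, like GSTA5, had 0 reads in every library. GSTM1, GSTT2B and HPGDS had at most 2 reads in any library, and GSTM5 at most 5. Of the 50-base words of GSTT2, GSTT2B and GSTM1, 81.7%, 87.4% and 58.3% occur in other genes, so reads of these genes may have been left out as non-unique, and low counts do not show that they are silent. GSTT1 and GSTT4 had no matching identifier and were not analysed here.

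**Figure D3:**
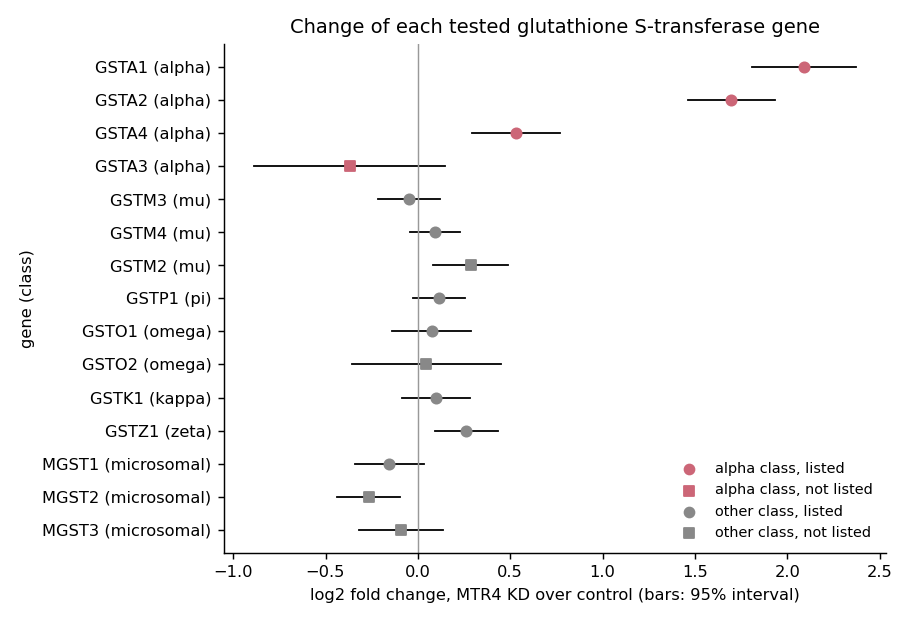
Log2 fold change of the 15 tested family genes, MTR4 KD over control, with 95% intervals from edgeR. The intervals of GSTA1 and GSTA2 take no account of the pair having been picked for its rise. Red marks the alpha class and grey the others, circles the 10 listed genes and squares the 5 others. GSTA1 and GSTA2 lie apart, GSTA4 between them and the rest, and the alpha class gene GSTA3 lies at -0.37.

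Levels can be compared between genes per kb of transcript. On that scale the order in control was GSTP1 at 1562 CPM per kb, MGST1 at 197.8, GSTO1 at 154.9, GSTK1 at 98.8, GSTA4 at 56.0, GSTM4 at 54.9, GSTM3 at 37.2, GSTZ1 at 12.8, GSTA1 at 8.47 and GSTA2 at 4.58. GSTA4 and GSTM4 were not separated in control, since GSTA4 ranged from 51.1 to 65.1 CPM per kb over its libraries, while the ranges of the other neighbours in this order did not overlap. After MTR4 KD, GSTA4 stood at 80.8 against 58.6 for GSTM4, and GSTA1, at 36.0, had passed GSTZ1, at 15.4, and stood level with GSTM3, also at 36.0. GSTA2 reached 14.9, beside GSTZ1, with ranges that overlapped.

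As a share of the family's summed CPM per kb, the alpha class held 2.72%, 3.56% and 2.81% in the control libraries and 5.17%, 5.66% and 4.99% after MTR4 KD. GSTA1 and GSTA2 together held 0.506%, 0.635% and 0.532% and then 1.86%, 2.26% and 1.92%. GSTP1 made up between 65.6% and 67.6% in all 6 libraries, so the largest contributor to the family's RNA was the same gene in both groups. Without GSTA1 and GSTA2 the family's sum was 2258 to 2385 CPM per kb in control and 2429 to 2553 CPM per kb after MTR4 KD.

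The genes beside the alpha cluster were also read. Of 7 protein-coding genes outside the family that start within 500 kb of GSTA1, 6 were tested, 1 was called higher and 1 lower, beside 1.48% and 2.12% of all tested genes. TMEM14A, a small membrane protein gene that starts 132.7 kb from GSTA1 on the side of GSTA2, was at 102.0, 97.3 and 100.4 CPM in control and 135.4, 132.6 and 150.8 CPM after MTR4 KD. The groups did not overlap, with a log2 fold change of 0.48 (SE 0.0691, adjusted p = 0.0135, edgeR). PAQR8, a membrane progestin receptor gene farther out on that side, was at 22.9, 23.2 and 26.8 CPM against 13.2, 13.4 and 15.0 CPM, lower by a log2 fold change of -0.81 (SE 0.0967, adjusted p = 0.00699). Neither gene was called without MTR4 KD 1 or without MTR4 KD 2. Without control 1 or without control 3, 1 neighbour was called lower and 0 higher, so TMEM14A was not called there either. TRAM2, which starts between PAQR8 and TMEM14A, had a log2 fold change of 0.03. On the GSTA4 side CILK1 was at 0.18 and FBXO9 at 0.19, and neither passed. With the batch as a term, 3 neighbours were called higher and 2 lower, beside 9.43% and 10.8% of all tested genes.

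**Figure D4:**
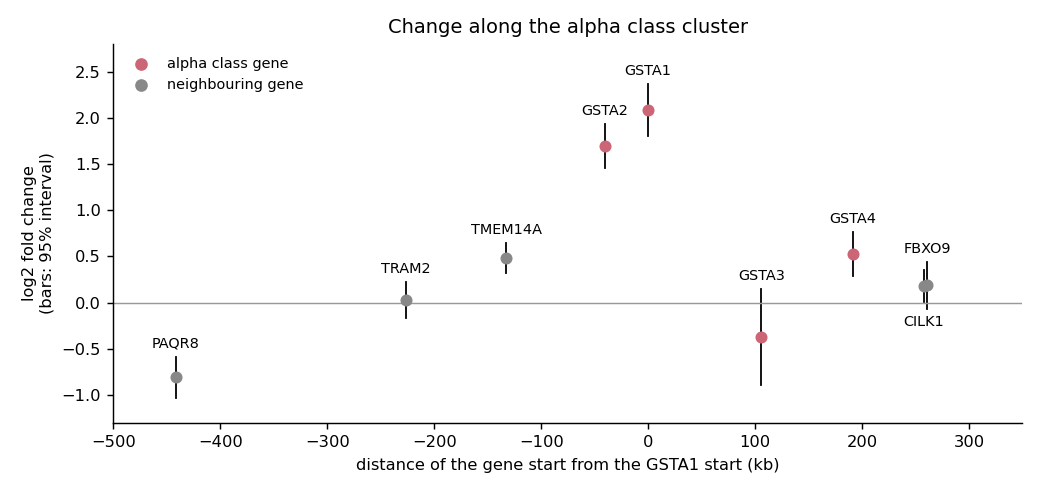
Log2 fold change with 95% interval of tested genes around the alpha cluster, with a gene that is not reported here left out, by the distance of each gene start from the GSTA1 start in kb, negative towards lower coordinates of chromosome 6. GSTA1 and GSTA2 form a narrow peak, TMEM14A and GSTA4 are at 0.48 and 0.53, and GSTA3 between GSTA1 and GSTA4 is at -0.37. GSTA1 and GSTA2 were picked for their rise, and their intervals take no account of that.

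Other genes of glutathione metabolism were read as a list. Of 54 listed genes that make, recycle, use, break down or export glutathione and its conjugates, 45 were tested, 0 were called higher and 2 lower, with a median log2 fold change of 0.02, where 1.48% of all tested genes were called higher and 2.12% lower. The rate-limiting ligase subunits GCLC and GCLM, both targets of the stress-responsive factor NRF2, had log2 fold changes of 0.05 (SE 0.0531, adjusted p = 0.651) and 0.07 (SE 0.0928, adjusted p = 0.757). Glutathione reductase, GSR, was at -0.09 (SE 0.0682, adjusted p = 0.555), and with the batch as a term it was called lower, at -0.13 (adjusted p = 0.0448).

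Among those called lower was ABCC1, the pump MRP1 that exports glutathione conjugates. It was at 97.2, 103.1 and 110.2 CPM against 79.9, 82.9 and 71.8 CPM, without overlap and with a log2 fold change of -0.40 (SE 0.0794, adjusted p = 0.0408). Without MTR4 KD 3 or without control 2, 1 pathway gene was called, and without any other single library 0 were called. With the batch as a term 4 of the 45 genes were called higher and 9 lower, where 9.43% and 10.8% of all tested genes were called.

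**Figure D5:**
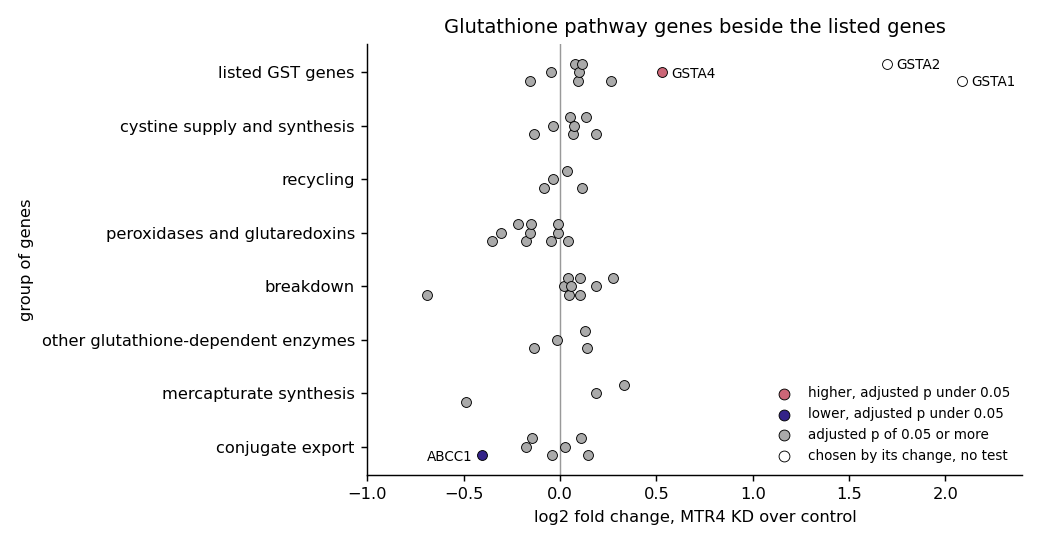
Log2 fold change of the 10 listed genes and of tested glutathione pathway genes by role, with a gene that is not reported here left out. GSTA1 and GSTA2 (open circles, picked for their change) lie far to the right of every pathway gene shown, and the called pathway gene ABCC1 lies to the left of 0.

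A list of 22 genes held factors with textbook roles at these promoters and, as 4 of the 22, targets of NRF2. Of the 22, 1 was called higher and 0 lower, with a median log2 fold change of 0.08, beside 1.48% and 2.12% of all tested genes. Among the factors, 0 of 5 genes listed with NRF2, 0 of 7 hepatocyte factors and 0 of 6 xenobiotic receptors were called. The called gene was OSGIN1, an NRF2 target that restrains growth, at 58.0, 36.6 and 49.5 CPM in control and 102.3, 103.3 and 127.6 CPM after MTR4 KD. The groups did not overlap, and the log2 fold change was 1.21 (SE 0.173, adjusted p = 0.0134). Without MTR4 KD 1, MTR4 KD 2 or control 3, 0 of the 22 genes were called. Neither NFE2L2, the gene of NRF2, nor HNF4A, a factor of hepatocyte identity, passed. Their log2 fold changes were 0.08 and 0.03 (adjusted p = 0.547 and 0.837). With the batch as a term, 8 of the 22 genes were called higher and 4 lower, beside 9.43% and 10.8% of all tested genes. Of the genes called only in that fit, those whose groups did not overlap are named, a choice made after their values were seen. They included the NRF2 targets HMOX1 and SRXN1, at log2 fold changes of 0.50 and 0.45. The xenobiotic receptor gene NR1I2 was at 0.93 and MAFK, a small partner protein of NRF2, at -0.69. The others were RXRA at 0.32, KEAP1 at 0.27 and AHR at -0.19. NQO1, another NRF2 target, was called in neither fit and was at -0.04 with the batch as a term. Every MTR4 KD library was below every control library for NQO1.

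Among 12861 genes with a mean of at least 100 counts, the 5 whose log2 CPM followed GSTA1 most closely over the 6 libraries included ALAD (Pearson r = 0.9992), GNPDA1 (0.9989), ITIH1 (0.9979) and VSNL1 (0.997). ALAD makes porphobilinogen in haem synthesis, ITIH1 is a secreted liver protein, GNPDA1 acts in hexosamine breakdown and VSNL1 is a calcium sensor. ITIH1 was at 40.1, 42.1 and 41.4 CPM against 75.7, 86.1 and 80.5 CPM, a log2 fold change of 0.97. Among the listed genes, r with GSTA1 was 0.995 for GSTA2, 0.950 for GSTZ1, 0.949 for GSTA4 and -0.72 for MGST1. All these values rest on the same 6 libraries and the same difference between groups, so they are given as a description.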

How the data were processed

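The 3 control and 3 MTR4 KD RNA-seq libraries were grouped by their labels. The authors deposited raw counts of reads per Ensembl gene for each library, without normalization. The submitters' processing notes name HISAT2 2.1.0, HTSeq, DESeq2 and GRCh38. Read length, counting settings and strand are not given in the sources used here, so reads of overlapping antisense genes may not be told apart. Symbols came from GENCODE lifted to GRCh37 (56959 of 60675 identifiers), positions and promoters from RefSeq (GRCh38.p14), and transcript words and canonical lengths from the GENCODE transcripts.

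Rows that name no gene (37.7% to 49.3% of entries per library) were left out of library sizes. Genes were kept by filterByExpr (minimum of 10 counts), scaled by TMM and tested with edgeR's quasi-likelihood method, modelling condition alone, with Benjamini-Hochberg adjustment over 18075 genes and a threshold of 0.05 (R 4.3.3, edgeR 4.0.16). The procedure was run on simulated counts that had no batches and less spread between libraries than the main fit found here. That run checks the code and does not measure error rates in these data. CPM are counts scaled with the TMM factors. Likeness to GSTA1 used log2(CPM + 0.5). Alternatives used DESeq2 1.42.0 and limma 3.58.1 (voom), other scalings and filters, a replicate block, the batch as a covariate (cut at 30% non-unique reads), a fold threshold, GSTA1 and GSTA2 summed, and each library left out. Tables and plots used Python 3.11.15, pandas 2.3.3 and matplotlib 3.10.9.

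The genes, the lists (glutathione pathway, factors and targets, cell type markers) and the batch were chosen with earlier results of these data known. Named genes are the 10 listed ones, MTREX, the other family genes, list genes at an adjusted p under 0.05 with GCLC, GCLM, GSR, NFE2L2 and HNF4A, tested genes within 500 kb of GSTA1, and the 5 genes most like GSTA1. Some genes and a motif covered by this rule or by the planned search are not reported here. Marker genes were named where they passed the test. KDR, CD68, LYZ, PTPRC, COL1A2, NQO1 and the factors or targets named from the fit with the batch were chosen after their values were seen. Protein sequences were not analysed here.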

Additional observations from a re-analysis of the deposited data

How the results depend on the processing

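The log2 fold changes of the 10 genes kept their direction in every alternative that was run, except that GSTM3 (0.02 in the more non-unique batch) and GSTO1 (-0.0006 in the other) changed sign within a batch. GSTA1 and GSTA2 ranged from 2.00 to 2.18 and from 1.63 to 1.76 when single libraries were left out. GSTA4 lost its call in 5 of these 6 fits and was called under every scaling, filter and tool. The largest effect came from the library batch as a covariate. It called 4 of the 8 listed genes beside the pair, 2 other family genes and 13 glutathione pathway genes, against 1, 0 and 2. It also called 12 factors and targets, 5 neighbours of GSTA1 and 3649 of all genes, against 1, 2 and 650. DESeq2's Wald test called 4 glutathione pathway genes, 4 factors and targets and 1363 genes in all. Without a filter on low counts 2 factors and targets were called. Requiring a fold over 2 as well left 0 of the 8 genes, 0 glutathione pathway genes, 0 neighbours and 150 of all genes. When single libraries were left out, the counts ranged from 0 to 1 for the 8 genes and 0 to 1 for the glutathione pathway. They ranged from 0 to 2 for factors and targets, 0 to 2 for neighbours and 137 to 803 for all genes. These fits have fewer samples.

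The replicate numbers in the labels showed no pairing of the samples beyond the batch: deviations of same-numbered libraries correlated at -0.24, 0.32 and 0.35. The values of 0.32 and 0.35 came from pairs within a batch. Differently numbered pairs of control and MTR4 KD within a batch were at 0.34 and 0.36, and every pair across batches was negative. With the replicate block, 1 of the 8 listed genes beside the pair, 4 glutathione pathway genes and 2 factors and targets were called, and 857 genes in all. Each batch held only 1 library of 1 of the conditions, and genes with few reads, such as GSTA3 and GSTO2, had wide intervals.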
